A study of Mus musculus with 12 samples.

Results

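The guanylate binding proteins (Gbp) were followed by mRNAseq in primary stroma cultured from the small intestine of mice. The members were 8 genes taken by symbol, Gbp2, Gbp3, Gbp4, Gbp5, Gbp6, Gbp7, Gbp8 and Gbp9, of 23329 genes listed in each count table. All 8 symbols stood in all 12 tables. The rule itself used the symbols only, and the family was taken up with earlier results of these data known.

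Guanylate binding proteins are large GTPases of the dynamin superfamily that cells make in quantity after exposure to interferon. They assemble on bacteria in the cytosol and on the vacuoles of intracellular pathogens, bind lipopolysaccharide (LPS) on bacterial surfaces, and help caspase-11 and other inflammasome sensors to respond. Their promoters are classic targets of interferon signaling, which in cells exposed to LPS can be set off by interferon beta made downstream of Toll-like receptor 4.

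The study asked how embryonic and adult stroma of the intestine differ in their response to LPS. Cultures came from mouse embryos at E14.5 (days of gestation) or from adult mice and were used after a few passages. They received LPS of Escherichia coli O111:B4, given in the labels as 10 µg/µl, or vehicle (PBS), and RNA was taken after 6 h in culture with LPS. The 4 groups, embryonic PBS, embryonic LPS, adult PBS and adult LPS, held 3 libraries each. No allele or transgene was named for any group. The methods of the study describe independent cultures, with embryos pooled for the embryonic groups, so that an embryonic library stands for several animals. The labels call the cells intestinal myofibroblasts, and the term stroma is kept here.

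Between 18850224 and 32672370 reads per library were assigned to genes. Levels are given as CPM, the usual scaling of a gene's reads to the total assigned to genes, after TMM (trimmed mean of M values) adjustment, and 3 counts in a library corresponded to 0.0896 to 0.144 CPM. The 6 myofibroblast and smooth muscle markers summed to at least 13609 CPM and the 9 stromal markers to at least 11387 CPM in every library. T and NK cell markers summed to at most 1.39 CPM, B cell markers to at most 0.173 CPM and the 6 epithelial markers to at most 117 CPM. The 14 macrophage markers, none of them at 0, summed to 245 to 2962 CPM in embryonic PBS, 204 to 2275 CPM in embryonic LPS, 20.8 to 197 CPM in adult PBS and 17.3 to 214 CPM in adult LPS libraries. The 8 endothelial markers reached 1828 CPM in adult PBS replicate 2 and 1754 CPM in adult LPS replicate 2, stood at 384 and 357 CPM in adult replicate 3, and summed to at most 20.5 CPM in adult replicate 1 and 35.2 CPM in the embryonic libraries. In bulk RNA, fewer cells of a type and less RNA per cell cannot be told apart.

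The Gbp genes lie in clusters on 2 chromosomes of the RefSeq annotation (GRCm38.p6). Gbp5, Gbp7, Gbp3 and Gbp2 lie on the plus strand of chromosome 3 within 141 kb, from base 142496934 to base 142638008, together with Gbp2b, which the tables list as Gbp1. Gbp8, Gbp9, Gbp4 and Gbp6 lie on chromosome 5 within 334 kb, from base 105012513 to base 105346476, together with Gbp10 and the transcribed pseudogene Gbp11. Promoter windows of RefSeq were available for the 4 members on chromosome 3. They are printed because these 4 genes rose with LPS in embryonic stroma, with matches to the core of the interferon-stimulated response element (ISRE), GAAANNGAA on either strand, in capitals. Each printed match reads as the reverse complement of that motif. Each runs from 250 bases before the RefSeq transcript start and ends before transcribed sequence, or within the first 30 transcribed bases of the GENCODE annotation.
Gbp5 (GRCm38.p6, chr3:142496684-142496929, plus strand): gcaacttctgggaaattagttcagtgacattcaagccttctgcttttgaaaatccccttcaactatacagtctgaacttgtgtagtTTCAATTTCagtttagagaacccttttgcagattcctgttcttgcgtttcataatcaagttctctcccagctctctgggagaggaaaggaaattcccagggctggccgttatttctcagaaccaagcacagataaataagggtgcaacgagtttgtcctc
Gbp7 (GRCm38.p6, chr3:142530086-142530335, plus strand): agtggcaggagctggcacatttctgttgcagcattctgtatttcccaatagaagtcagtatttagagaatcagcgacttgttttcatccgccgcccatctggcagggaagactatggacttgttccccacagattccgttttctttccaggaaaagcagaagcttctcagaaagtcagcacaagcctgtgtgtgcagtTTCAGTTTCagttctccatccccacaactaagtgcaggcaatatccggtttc
Gbp3 (GRCm38.p6, chr3:142559794-142560015, plus strand): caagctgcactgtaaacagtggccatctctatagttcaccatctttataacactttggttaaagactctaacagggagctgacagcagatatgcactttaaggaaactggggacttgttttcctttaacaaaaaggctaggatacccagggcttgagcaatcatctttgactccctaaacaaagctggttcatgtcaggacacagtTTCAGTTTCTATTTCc
Gbp2 (GRCm38.p6, chr3:142620413-142620631, plus strand): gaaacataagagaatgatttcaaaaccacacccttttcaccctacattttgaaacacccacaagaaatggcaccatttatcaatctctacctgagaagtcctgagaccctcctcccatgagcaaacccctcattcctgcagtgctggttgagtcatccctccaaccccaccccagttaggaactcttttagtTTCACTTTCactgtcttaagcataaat

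The ISRE core was present in a window of each of the 4 members and of Gbp2b, and in 8.56% of 32851 promoter windows in the RefSeq table. Motifs were searched in the full windows of 300 bases, of which the printed runs are the first part. The match began 58 bases before the start in Gbp2 and 52 bases before it in Gbp7. Gbp3 held overlapping matches that began 44 and 38 bases before the start used for the printed run. No match was recorded for the other RefSeq start of Gbp3, at base 142560356. The match of Gbp5 lay farther out, 164 bases before the start. The core of the gamma-activated site, TTCNNNGAA, to which STAT dimers bind, occurred in Gbp5 (245 and 52 bases before the start) and Gbp7 (106 and 87 bases before it), and in 8.30% of all windows. The NF-kB motif GGNNNTTCC occurred in Gbp5, 77 bases before the start, in Gbp2, 7 bases after the start and so beyond the printed run, and in 18.5% of all windows. A match is a run of letters and not a measured binding site. Promoters of the chromosome 5 members were not analysed here.

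**Figure D1:**
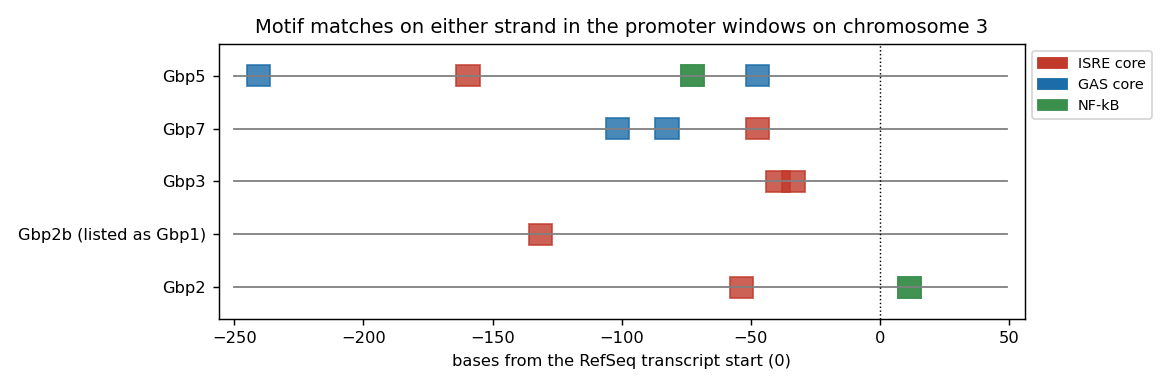
Matches to the ISRE core, the core of the gamma-activated site (GAS) and the NF-kB motif in promoter windows of the chromosome 3 genes, by bases from the RefSeq transcript start on the horizontal axis, with 1 row per gene. An ISRE core lies within 58 bases of the start in Gbp2, Gbp3 and Gbp7, and 164 bases before it in Gbp5.

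LPS raised most Gbp transcripts in embryonic stroma, several of them from near 0. Summed over the 8 members, the embryonic PBS libraries held 9.48, 8.41 and 26.0 CPM (replicates 1, 2 and 3) and the embryonic LPS libraries 513, 638 and 2812.5 CPM. Every embryonic LPS library stood far above every PBS library, and replicate 3 stood above the other embryonic libraries under both treatments. The adult PBS libraries held 19.8, 20.1 and 19.6 CPM and the adult LPS libraries 275, 429 and 274 CPM. The group means were 14.6 ± 9.85 (SD, n = 3) and 1321 ± 1293 CPM in embryonic PBS and LPS, and 19.8 ± 0.220 and 326 ± 89.3 CPM in adult PBS and LPS.

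**Figure D2:**
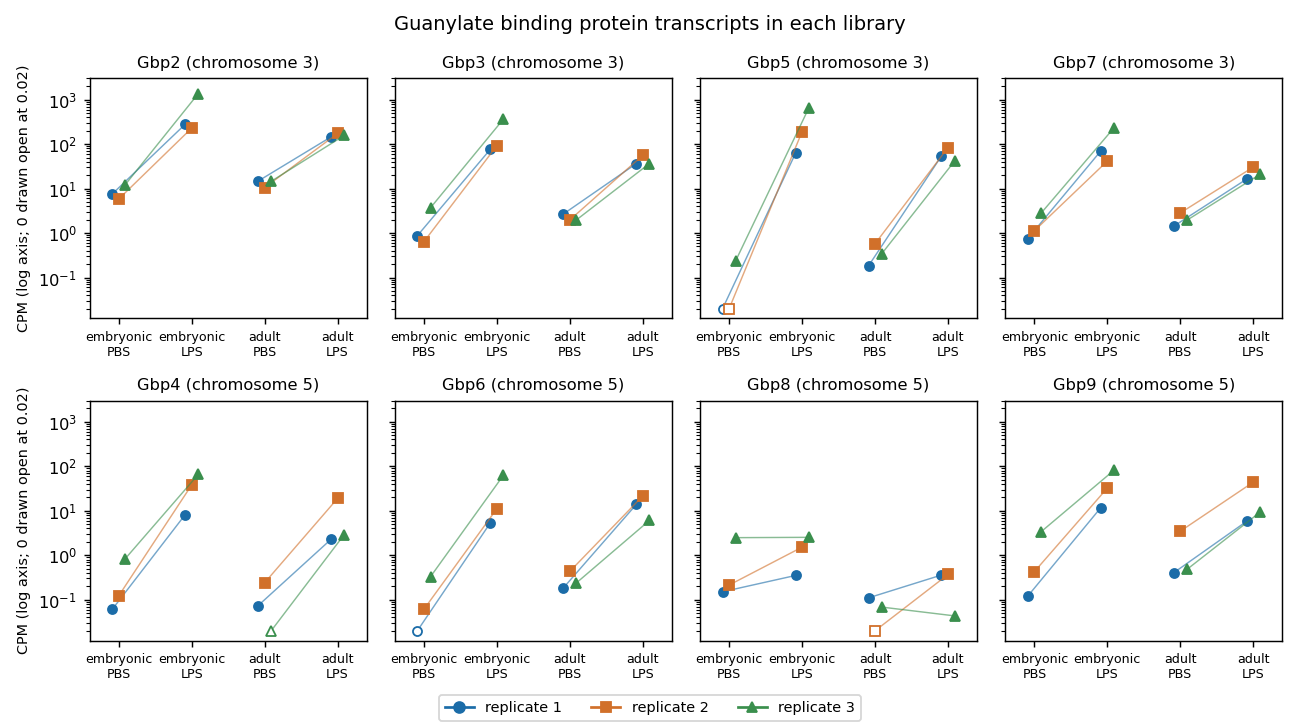
CPM of each Gbp member (log axis, 0 drawn as an open symbol at 0.02) in the 4 groups, with lines joining libraries that share a replicate number within a stage. All members but Gbp8 rise with LPS in every pair, and embryonic replicate 3 is the highest embryonic LPS library for each member.

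The tests compared LPS with PBS in each stage by edgeR's quasi-likelihood test over 13038 genes, with Benjamini-Hochberg adjustment. A call required an adjusted p under 0.05 and a log2 fold change of 2 or more in size. Within a stage, LPS and PBS libraries that shared a replicate number departed from their group means in like ways, so the fit with the replicate number as a block is given where it changed a call. Of the 8 members, 7 passed the filter on low counts and Gbp8 did not. Gbp2, Gbp3 and Gbp7 passed in PBS groups, whereas Gbp4, Gbp5, Gbp6 and Gbp9 passed in LPS groups only and so had to be higher there. In embryonic stroma 6 members were called, all higher with LPS, where 1.87% of the tested genes were called higher. With the block 7 were called, against 3.02% of genes. In adult stroma 3 were called, against 0.422% of genes, and 7 with the block, against 1.6% of genes. With no filter on low counts all 8 were tested, 6 were called in embryonic stroma (1.25% of 18810 genes) and 3 in adult stroma (0.282%).

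Gbp2 and Gbp5 carry a C-terminal motif for prenylation, the lipid anchor that holds these GTPases on membranes. Gbp5 showed the largest fold changes of the family. Its embryonic PBS libraries held 0, 0 and 0.239 CPM, which are 0, 0 and 8 counts, and its embryonic LPS libraries 62.5, 192 and 641 CPM. Its transcripts were thus at or near the detection limit in embryonic stroma without LPS and among the abundant Gbp transcripts with it. In adult stroma Gbp5 went from 0.183, 0.577 and 0.341 CPM to 54.1, 83.7 and 41.6 CPM. The log2 fold change was 11.78 ± 1.27 (SE; edgeR adjusted p = 0.00188) in embryonic and 7.38 ± 1.05 (edgeR adjusted p = 0.0131) in adult stroma. The size of the embryonic estimate rests on the 8 PBS counts of embryonic replicate 3, since the other embryonic PBS libraries were at 0.

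Gbp2 was the most abundant member per transcript length in all 4 groups. Its embryonic libraries held 7.53, 5.82 and 12.3 CPM with PBS and 278, 229 and 1363 CPM with LPS. The adult libraries held 14.7, 10.5 and 14.6 CPM with PBS and 145, 174 and 157 CPM with LPS. The adult LPS libraries lay close together, and the embryonic ones spread 5.95-fold. Within numbered pairs the fold was 37.0, 39.4 and 111 in embryonic and 9.88, 16.5 and 10.7 in adult stroma. The log2 fold change was 6.19 ± 0.72 (edgeR adjusted p = 0.00238) in embryonic and 3.58 ± 0.64 (edgeR adjusted p = 0.0404) in adult stroma.

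Gbp3 and Gbp7 lie next to each other on chromosome 3, and both were detected without LPS. Gbp3 held 0.873, 0.640 and 3.70 CPM in embryonic PBS and 76.5, 92.3 and 366 CPM in embryonic LPS libraries. In adult libraries it held 2.67, 1.97 and 1.98 CPM with PBS and 36.4, 56.2 and 36.6 CPM with LPS. The groups did not overlap in either stage. Its log2 fold change was 6.67 ± 0.86 (edgeR adjusted p = 0.00345) in embryonic and 4.28 ± 0.78 (edgeR adjusted p = 0.0427) in adult stroma. Gbp7 held 0.753, 1.13 and 2.78 CPM in embryonic PBS and 70.1, 41.6 and 231 CPM in embryonic LPS libraries, and 1.43, 2.84 and 1.94 CPM in adult PBS and 16.4, 30.4 and 20.8 CPM in adult LPS libraries. Its adult pairs were alike, with folds of 11.5, 10.7 and 10.7. The embryonic pairs had folds of 93.2, 36.9 and 83.3. Gbp7 rose in embryonic stroma by 6.20 ± 0.78 on the log2 scale (edgeR adjusted p = 0.00306). Its adult log2 fold change was 3.45 ± 0.70 (edgeR adjusted p = 0.0648), and 3.45 ± 0.21 with the block (edgeR adjusted p = 7.41e-05).

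Gbp4, Gbp6 and Gbp9 lie in the cluster on chromosome 5, and their transcripts were close to the detection limit in some PBS libraries. Gbp4 held 0.0602, 0.122 and 0.836 CPM in embryonic PBS and 8.13, 38.0 and 65.3 CPM in embryonic LPS libraries. In adult libraries it held 0.0732, 0.240 and 0 CPM with PBS and 2.28, 18.9 and 2.89 CPM with LPS. Adult LPS replicate 2 was 8.32-fold above the lowest adult LPS library. The same culture was high for Gbp9, with 0.403, 3.46 and 0.477 CPM in adult PBS and 5.79, 43.9 and 9.20 CPM in adult LPS libraries. In embryonic libraries Gbp9 held 0.120, 0.427 and 3.35 CPM with PBS and 11.7, 32.4 and 81.1 CPM with LPS. With LPS, adult replicate 2 was the highest adult replicate for every member. With PBS it was the highest for Gbp4, Gbp5, Gbp6, Gbp7 and Gbp9, but not for Gbp2, Gbp3 and Gbp8. Adult replicate 2 also held the highest sum of endothelial markers, whose part in these levels was not tested. Within pairs the adult folds of Gbp9 were 14.4, 12.7 and 19.3. Gbp6 held 0, 0.0609 and 0.329 CPM in embryonic PBS and 5.32, 11.1 and 62.9 CPM in embryonic LPS libraries, and 0.183, 0.433 and 0.238 CPM in adult PBS and 13.8, 21.6 and 6.05 CPM in adult LPS libraries. In embryonic stroma Gbp4 rose by 6.75 ± 1.35 (edgeR adjusted p = 0.0263) and Gbp6 by 7.62 ± 1.27 on the log2 scale (edgeR adjusted p = 0.0114), and Gbp9 had a log2 fold change of 5.00 ± 1.41 (edgeR adjusted p = 0.117). In adult stroma the log2 fold changes were 6.36 ± 1.49 for Gbp4 (edgeR adjusted p = 0.126), 5.62 ± 1.17 for Gbp6 (edgeR adjusted p = 0.0740) and 3.80 ± 1.35 for Gbp9 (edgeR adjusted p = 0.544). With the block all 3 were called in both stages, and the standard errors were 0.27 to 0.46.

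Gbp8 did not follow the other members. It held 0.151, 0.213 and 2.48 CPM in embryonic PBS and 0.350, 1.52 and 2.52 CPM in embryonic LPS libraries. Embryonic replicate 3 held nearly the same amount with and without LPS, a fold of 1.02 within the pair, and the groups overlapped. In embryonic replicates 1 and 2 the folds were 2.33 and 7.12, from 5 and 7 counts with PBS. The adult libraries held 0.110, 0 and 0.0681 CPM with PBS and 0.358, 0.368 and 0.0432 CPM with LPS, at most 12 counts. With no filter on low counts its log2 fold change was 0.59 ± 1.07 in embryonic (edgeR adjusted p = 1) and 1.98 ± 1.39 in adult stroma (edgeR adjusted p = 1).

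Leaving out single libraries or a stage changed these calls. Fitted to the 6 embryonic libraries alone, without the block, edgeR called 0 members (lowest adjusted p = 0.0994), although all 7 had an unadjusted p under 0.05. That fit called only 4 of 12620 genes higher. With the block it called 7 members, and 350 genes higher. In embryonic stroma 4 members were called without embryonic PBS replicate 1 or without embryonic PBS replicate 2 (Gbp4 and Gbp6 were lost), and 5 without embryonic LPS replicate 3 (Gbp4 was lost). In adult stroma edgeR called 0 members when any of the adult PBS libraries was left out, with 6 or 7 at an unadjusted p under 0.05, and Gbp5 was the 1 member called when any of the adult LPS libraries was left out or embryonic PBS replicate 1 was. Without embryonic PBS replicate 2 the adult calls were 2, without embryonic LPS replicate 1 or 2 they were 4, and without embryonic LPS replicate 3 they were 5. With the block, 7 members were called in each stage whichever numbered pair was left out. The groups of LPS and PBS libraries did not overlap for 7 of the 8 members in either stage, as was the case for 7.59% of the tested genes in embryonic and 9.1% in adult stroma (LPS above PBS). Of these members, only Gbp2, Gbp3 and Gbp7 passed the filter in PBS groups. For Gbp4, Gbp5, Gbp6 and Gbp9, which passed in LPS groups only, the order was partly fixed by the filter.

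**Figure D3:**
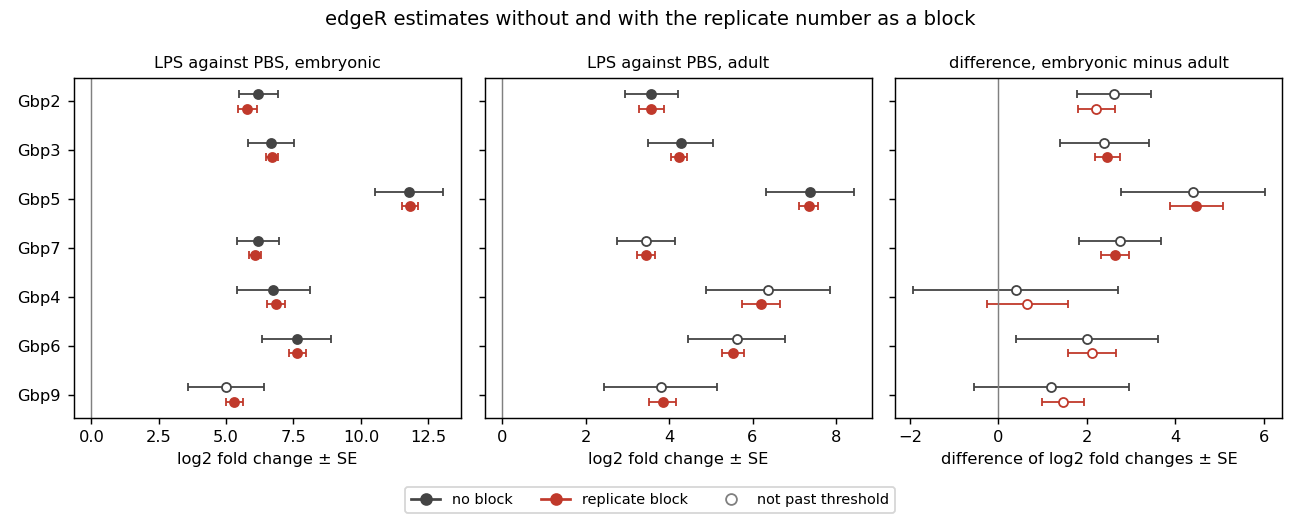
Estimates by edgeR, log2 fold change of LPS against PBS (left and middle) and their difference between stages (right) with standard errors, for the 7 tested members, without (grey) and with (red) the replicate block. Open symbols did not pass the threshold, and in the right panel only Gbp3, Gbp5 and Gbp7 pass, with the block.

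Embryonic and adult stroma were next compared for the size of their response. The estimated difference in response, embryonic minus adult, ran from 0.39 (Gbp4) to 4.40 (Gbp5) on the log2 scale. The sign for Gbp4 turned when adult PBS replicate 2 (-0.92), adult LPS replicate 1 or 3, embryonic LPS replicate 3 or embryonic PBS replicate 1 or 2 was left out, and that for Gbp9 without adult PBS replicate 2 (-0.47). A call here required an adjusted p under 0.05 with no limit on the fold. Without the block 0 members were called in this test of the interaction, as were 0% of the 13038 genes, with 4 members (Gbp2, Gbp3, Gbp5 and Gbp7) and 293 genes at an unadjusted p under 0.05 in edgeR. DESeq2 and the likelihood ratio test also called 0 members, and DESeq2 called 22 genes with a larger and 3 with a smaller embryonic response. With the block the interaction was called for 3 members, where 0.798% of genes were called higher. Gbp3 responded more in embryonic stroma by 2.47 ± 0.28 (edgeR adjusted p = 0.00900), Gbp7 by 2.64 ± 0.31 (edgeR adjusted p = 0.00920) and Gbp5 by 4.48 ± 0.60 on the log2 scale (edgeR adjusted p = 0.0169). The difference was 2.21 ± 0.42 for Gbp2 (edgeR adjusted p = 0.0751), 2.12 ± 0.53 for Gbp6 (edgeR adjusted p = 0.209), 1.46 ± 0.48 for Gbp9 (edgeR adjusted p = 0.383) and 0.65 ± 0.92 for Gbp4 (edgeR adjusted p = 0.909). All 3 called members lie on chromosome 3, as do 4 of the 7 tested members. Gbp6 on chromosome 5 had a difference (2.12) close to that of Gbp2 on chromosome 3 (2.21).

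The same difference was read from the numbered pairs. For Gbp7 the differences between LPS and PBS libraries in log2 CPM (with a prior count of 2) were 6.42, 5.12 and 6.35 in embryonic and 3.46, 3.39 and 3.38 in adult pairs. For Gbp5 they were 9.82, 11.44 and 11.02 in embryonic and 7.75, 7.02 and 6.67 in adult pairs. For Gbp4 the lowest embryonic pair (5.98) and the highest adult pair (5.94) met, and with PBS libraries at 0 to 5 counts in adult stroma their order depends on the prior count. The lowest embryonic pair was above the highest adult pair for Gbp2, Gbp3, Gbp5, Gbp6, Gbp7 and Gbp9, against 9.66% of the tested genes on this scale. For Gbp6, whose embryonic PBS libraries held 0, 2 and 11 counts, the order also depends on the prior count.

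**Figure D4:**
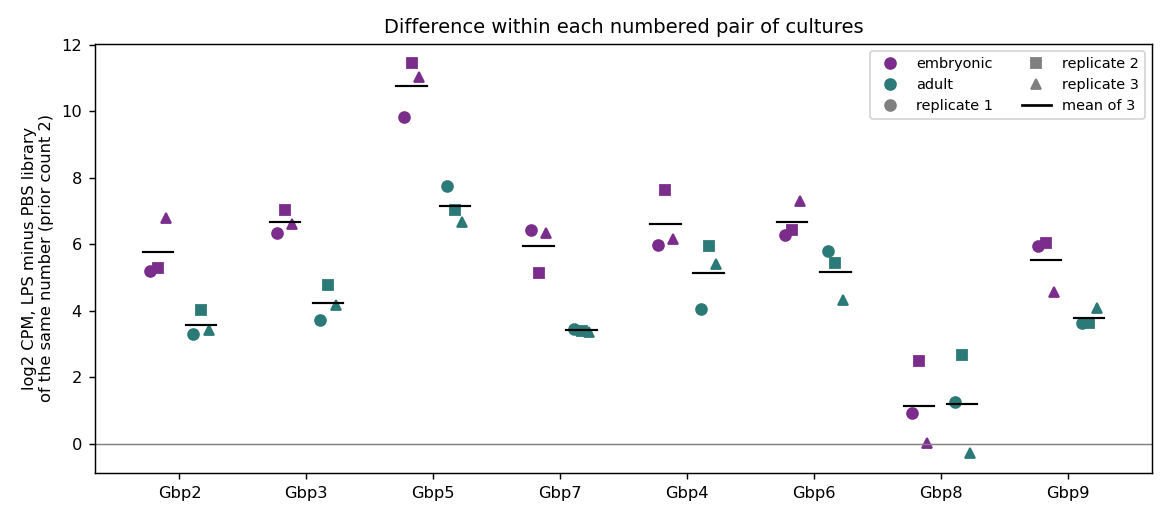
Difference in log2 CPM (prior count 2) between the LPS and the PBS library of the same replicate number, for each member and stage, with a bar at the mean of 3 pairs. At this prior count embryonic pairs lie above adult pairs for Gbp2, Gbp3, Gbp5, Gbp6, Gbp7 and Gbp9, while those of Gbp4 meet and those of Gbp8 overlap.

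The called differences depended on which cultures were kept. With the block, 5 members were called without embryonic replicate 3, with Gbp2 (1.66 on the log2 scale, edgeR adjusted p = 0.0119) and Gbp9 (2.45, edgeR adjusted p = 0.0125) added to Gbp3 (2.53), Gbp7 (2.38) and Gbp5, whose PBS libraries left in embryonic stroma were at 0 counts, so that its fitted value has no interpretable size. Of the adult pairs, leaving out replicate 1 kept 2 calls (Gbp3 and Gbp5), leaving out replicate 2 kept Gbp3, and leaving out replicate 3 left 0 calls by edgeR. Embryonic replicate 3 also had the highest macrophage marker sum, 2962 CPM with PBS and 2275 CPM with LPS. Of the 14 macrophage markers, 13 were higher in every embryonic than in every adult library with PBS, and 9 with LPS. The part of macrophage RNA in the stage difference was not tested.

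**Figure D5:**
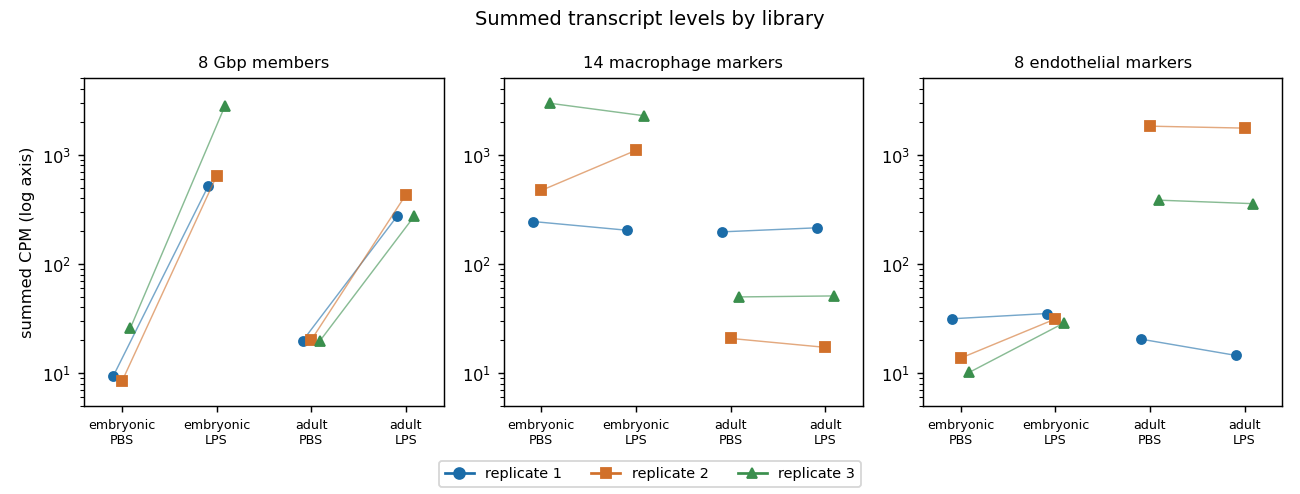
Summed CPM (log axis) of the 8 Gbp members, 14 macrophage markers and 8 endothelial markers in each library, with lines joining the libraries of a numbered pair. The Gbp sum rises with LPS in all 6 pairs, while the macrophage sum is highest in embryonic replicate 3 and the endothelial sum in adult replicate 2, with or without LPS.

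The levels of both stages were also compared within each treatment, at an adjusted p under 0.05. With PBS, 0 members differed between embryonic and adult stroma, against 4.08% of genes called in either direction, and 0 members had an unadjusted p under 0.05 in edgeR. DESeq2 also called 0, with 1 (Gbp5) at an unadjusted p under 0.05. Their log2 differences, embryonic against adult, ran from -2.09 (Gbp5) to 1.81 (Gbp4), and the signs for Gbp3, Gbp4 and Gbp9 turned when a single library was left out. Without embryonic replicate 3 under either treatment, Gbp2 (edgeR adjusted p = 0.0361) and Gbp3 (edgeR adjusted p = 0.0275) were called lower in embryonic stroma. With LPS the log2 differences were 0.93 to 2.34, higher in embryonic stroma for each tested member (for Gbp6 it was -0.79 without embryonic LPS replicate 3), and 0 were called by edgeR, against 5.31% of genes in either direction. Of these members, 4 had an unadjusted p under 0.05, and DESeq2 and the likelihood ratio test called 3 (Gbp2, Gbp3 and Gbp7). Over all 13038 tested genes DESeq2 called 994 higher and 710 lower in embryonic stroma, and the likelihood ratio test 805 and 545. Without embryonic LPS replicate 1 edgeR called Gbp5 (2.80, adjusted p = 0.0456), without embryonic LPS replicate 2 it called Gbp7 and Gbp2, and without embryonic PBS replicate 3 it called Gbp7. The lowest embryonic LPS library exceeded the highest adult LPS library for Gbp2, Gbp3 and Gbp7, as for 13.4% of genes.

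Levels between members were compared per kilobase of transcript, with lengths from GENCODE transcripts that are linked to RefSeq. With PBS, Gbp2 led at 3.39 ± 1.33 CPM per kb in embryonic and 5.28 ± 0.945 CPM per kb in adult stroma, followed by Gbp3 at 0.648 and 0.823 CPM per kb. Gbp5 ranked last of the 8 in embryonic PBS (0.0261 CPM per kb). With LPS it ranked next to Gbp2 in both stages, at 97.7 ± 99.4 CPM per kb in embryonic and 19.6 ± 7.08 CPM per kb in adult stroma, against 248 ± 255 and 63.0 ± 5.64 CPM per kb for Gbp2. Gbp2 exceeded Gbp5 in all 3 LPS libraries of each stage. Gbp5 exceeded Gbp3 in 2 of 3 LPS libraries of each stage, so that these neighbours in the order were not separated. In embryonic LPS, Gbp3 (66.4 CPM per kb) stood above Gbp7 (20.4) in all 3 libraries, and Gbp6, Gbp9 and Gbp4 (10.2, 9.52 and 8.18 CPM per kb) changed places between libraries. In adult LPS, Gbp6, Gbp9 and Gbp7 stood at 5.31, 4.48 and 4.01 CPM per kb and also changed places. Gbp8 was last with LPS in both stages, at 0.595 and 0.104 CPM per kb.

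The authors kept uniquely mapped reads, which bears on members with near-identical stretches. Of the 75-base windows of the Gbp6 transcript, 82.4% occurred with at most 1 mismatch in another Gbp transcript, chiefly Gbp10 (79.7%). The share was 22.2% for Gbp8, 13.1% for Gbp4, 7.29% for Gbp9, 6.33% for Gbp3, 2.98% for Gbp7, 2.17% for Gbp2 and 0% for Gbp5. The levels of Gbp6 and Gbp10 are therefore uncertain. Gbp10, listed at 0 counts in every PBS library, had 8, 67 and 87 counts in embryonic LPS and 1, 20 and 1 counts in adult LPS libraries. Gbp11 was also at 0 in every PBS library and had 35, 48 and 308 counts in embryonic LPS libraries, at least 54.7-fold above a floor of 3 counts per PBS library, or at least 15.9-fold without replicate 3. Gbp1 (Gbp2b) had 1, 78 and 13 counts in embryonic LPS and at most 3 in adult LPS libraries.

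Genes placed upstream of Gbp induction in the known pathway were read from lists. Whether they led to the rise of Gbp transcripts in these cultures was not tested. In the list from Toll-like receptor 4 to interferon beta, 4 of 11 tested genes were called higher in embryonic and 0 in adult stroma, with a median log2 fold change of 0.60 in each stage, beside -0.00027 and -0.0075 over all tested genes. In adult stroma 5 of them had an unadjusted p under 0.05 in edgeR, DESeq2 called 1, and with the block edgeR called 2 there and 4 in embryonic stroma. Ifnb1, which encodes interferon beta, had 0 counts in all PBS libraries and 12.7 ± 11.4 CPM in embryonic LPS libraries, at least 140-fold above the floor of 3 counts per library and at least 77.2-fold without embryonic LPS replicate 3. In adult LPS libraries it stood at 0.506 ± 0.522 CPM, at least 4.26-fold above that floor, but at least 1.74-fold without adult LPS replicate 1, the highest at 1.11 CPM. Irf7, a transcription factor that sustains interferon production, had log2 fold changes of 5.76 (edgeR adjusted p = 0.00603) in embryonic and 1.73 (edgeR adjusted p = 0.725) in adult stroma, and Cd14, the LPS coreceptor, 4.45 (edgeR adjusted p = 0.0202) and 2.13 (edgeR adjusted p = 0.591). With the block the response of Irf7 was larger in embryonic stroma by 4.08 (edgeR adjusted p = 0.00199) and that of Cd14 by 2.09 (edgeR adjusted p = 0.0191).

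Among receptors and factors of interferon signaling, 6 of 15 tested genes were called higher in embryonic and 1 in adult stroma (Irf1, a transcription factor of interferon responses, with a log2 fold change of 3.53 and an edgeR adjusted p of 0.0425), and 6 and 2 with the block. The median log2 fold change was 1.74 in embryonic and 0.89 in adult stroma. Usp18 and Socs1, which dampen interferon signaling, had log2 fold changes of 7.10 (edgeR adjusted p = 0.00227) and 4.66 (edgeR adjusted p = 0.00598) in embryonic stroma, and Stat2, which carries the type I interferon signal to the nucleus, 4.23 (edgeR adjusted p = 0.00822). In adult stroma they were 2.85 (edgeR adjusted p = 0.133), 1.47 (edgeR adjusted p = 0.737) and 1.64 (edgeR adjusted p = 0.545). Ifng, the gene of interferon gamma, had 0 counts in all libraries except for 1 count in an adult LPS library, and of the 6 T and NK cell markers Cd2 and Ncr1 were at 0 in all libraries, while the other 4 were detected and brought the list to 1.39 CPM in embryonic PBS replicate 1, its highest sum.

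The immunity-related GTPases, which act with Gbp proteins on vacuoles, rose in embryonic stroma. All 7 tested genes were called higher there, against 1.87% of all tested genes, with a median log2 fold change of 6.18. In adult stroma 0 were called, against 0.422% of all tested genes, with a median of 2.05. In adult stroma 5 had an unadjusted p under 0.05 in edgeR and DESeq2 called 3. With the block the adult count was 4, against 1.6% of all tested genes. The interaction was then called for 4, where 0.798% of all tested genes were called higher. Iigp1 had a log2 fold change of 8.07 in embryonic (edgeR adjusted p = 0.00485) and 4.56 in adult stroma (edgeR adjusted p = 0.0800). Tgtp2 had 7.86 (edgeR adjusted p = 0.0142) and 3.42 (edgeR adjusted p = 0.464), and Tgtp1 had 6.99 (edgeR adjusted p = 0.00603) and 2.05 (edgeR adjusted p = 0.686). Tgtp1 and Tgtp2 are near-identical copies, so their separate counts are uncertain.

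Downstream of the Gbp proteins, 3 of 8 tested inflammasome and cell death genes were called higher in embryonic and 0 in adult stroma (5 and 3 with the block). DESeq2 called 3 in adult stroma, where 4 had an unadjusted p under 0.05 in edgeR. Il1b, the cytokine that inflammasomes release, had a log2 fold change of 9.78 (edgeR adjusted p = 0.00528) in embryonic and 7.24 (edgeR adjusted p = 0.0658) in adult stroma. Casp4, which encodes the LPS sensor caspase-11, had 5.25 (edgeR adjusted p = 0.00709) and 2.44 (edgeR adjusted p = 0.232), and the inflammasome sensor Nlrp3 5.00 (edgeR adjusted p = 0.0371) and 4.95 (edgeR adjusted p = 0.203). None of the 6 enzymes of CaaX prenylation and none of the 9 genes of Atg8 conjugation, the machinery that places Gbp proteins on vacuoles, was called by edgeR in either stage with or without the block or by DESeq2. Without the block 0 had an unadjusted p under 0.05 in edgeR, and their median log2 fold changes were between -0.04 and 0.05.

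The genes outside the family whose pattern over the 12 libraries was most like the mean standardized profile of the 7 tested members were Ikbke (Pearson r 0.989), Ifit1 (0.985), Dtx3l (0.979), Parp14 (0.978) and Slc2a6 (0.977). These libraries share the LPS and PBS groups, so that any gene raised by LPS correlates with the members. Ikbke is a kinase of the interferon-inducing pathway, Ifit1 an interferon-induced protein that binds viral RNA, and Dtx3l and Parp14 a ubiquitin ligase and an ADP-ribosyltransferase. Slc2a6 belongs to the family of glucose transporters. Among the members themselves r ran from 0.890 (Gbp2 with Gbp9) to 0.991 (Gbp2 with Gbp3).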

How the data were processed

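Stranded poly(A) libraries (single-end reads of 75 bases) were mapped by the authors to mm10 (GRCm38.p6) with STAR, allowing at most 1 mismatch and keeping uniquely mapped reads, and the deposited values were raw read counts per gene, without normalization. Counts on the strand of the library chemistry were used, and the opposite strand held 1.14% to 1.98% of gene counts. Rows that name no gene (17.4% to 19.9% of a table) were left out. Groups and replicate numbers came from the labels, dose and time from their treatment text. Genes with a CPM above 0.5 in all libraries of at least 1 group were tested, as in the paper's methods, with edgeR 4.0.16 (quasi-likelihood, TMM, all 12 libraries, Benjamini-Hochberg) in R 4.3.3. A standard error is the absolute log2 fold change divided by the square root of F.

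Deviations from group means correlated within a stage between LPS and PBS libraries that shared a number (r = 0.759, 0.784 and 0.710 in embryonic, 0.803, 0.850 and 0.610 in adult stroma) and not across stages (r = -0.31 to -0.0022), so the numbers were taken to pair cultures within a stage. That the paired libraries came from 1 culture is not stated. Without the block, p-values measure the spread between cultures of a group and take paired libraries as independent. With the block within a stage they measure the spread of the response between pairs.

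Members, gene lists and named genes (all members, other Gbp symbols, the 3 largest embryonic log2 fold changes of each pathway list with calls, the 5 nearest patterns) were chosen with earlier results of these data known. Irgd was read under Ifi47 and Adgre1 under Emr1, their synonyms in RefSeq. Promoters came from RefSeq and transcripts from GENCODE M21, both on GRCm38. The alternatives were DESeq2 1.42.0, the likelihood ratio test, other size factors and filters, replicate blocks, fits of a single stage, counts on either strand, other thresholds and left-out libraries. Leaving out both libraries of a numbered pair was added after seeing the data. The fit without the block was run on simulated counts, drawn without pairs and with the spread of the blocked fit. That run does not test either fit on paired cultures. Figures were drawn with matplotlib 3.10.9 in Python 3.11.15.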

Additional observations from a re-analysis of the deposited data

Results flagged for a closer look

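With the replicate block, the response to LPS differed between the stages by the test of the interaction for 3 members, where 0.798% of genes were called higher. Without the block edgeR called 0 members, and with it 0 when adult replicate 3 was left out. With the block the difference, embryonic minus adult, was 4.48 on the log2 scale for Gbp5 (edgeR adjusted p = 0.0169), 2.64 for Gbp7 (edgeR adjusted p = 0.00920) and 2.47 for Gbp3 (edgeR adjusted p = 0.00900). For each of the 3 called members every embryonic pair lay above every adult pair, as for 9.66% of the tested genes. The blocked test that picked these members reads the same pair differences, so this order adds no separate support.

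Reads on the strand opposite to the members also had higher counts with LPS. They were counted in none of the values of the report and entered only the alternative with counts on either strand. Summed over the 8 members they were 2, 2 and 7 counts in embryonic PBS and 49, 189 and 418 counts in embryonic LPS libraries, with a lowest value of 49. In adult stroma they were 6, 5 and 2 counts with PBS and 88, 164 and 29 counts with LPS, with a lowest value of 29. They made up 0.334% to 1.18% of the members' reads on either strand in all libraries. In embryonic libraries this share was 0.631% to 0.798% with PBS and 0.334% to 1.01% with LPS. In adult libraries it was 0.346% to 1.18% with PBS and 0.455% to 1.16% with LPS, so the treatments overlapped in both stages.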

How the results depend on the processing

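In embryonic stroma 6 members were called, where 244 of 13038 genes were called higher, and 4 to 7 under the other settings with all libraries. At an adjusted p under 0.01 it was 4, with 102 genes called higher. The fit of that stage alone without the block called 0 (edgeR), and only 4 of 12620 genes higher. Leaving out 1 library gave 4 to 6 calls. In adult stroma 3 were called (55 of 13038 genes were called higher), but 0 at an adjusted p under 0.01 (15 genes). DESeq2 called 7 (168 genes), the likelihood ratio test 6 (158 genes) and the replicate block within a stage 7 (209 genes). The fit of that stage alone called 5 (124 of 12543 genes), and 7 with the block (193 genes). The number of genes called thus changed with the setting as well. Leaving out 1 library gave 0 to 5. Leaving out both libraries of a pair, added after seeing the data, gave 0 without any of the adult pairs and 5 without embryonic replicate 3, and 7 with the block in each case.

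The interaction was called for 0 members, for 3 with the block, and, with the block and 1 pair left out, for 2, 1 and 0 (adult replicates 1, 2 and 3) and 3, 3 and 5 (embryonic replicates 1, 2 and 3). The block across stages called 0 members here and 4 in adult stroma. Between stages without LPS 0 members were called, but 2 without embryonic replicate 3. With LPS 0 were called, 3 by DESeq2 and by the likelihood ratio test, 0 to 2 with 1 library left out, and 1 and 2 without the embryonic pairs 1 and 2. The cause of these changes was not tested.

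Signs turned in 4 members, none of these values past the threshold. With 1 library left out, the interaction ran from -0.92 to 2.24 for Gbp4 and from -0.47 to 3.43 for Gbp9, and without the embryonic pair 2 it was -0.024 for Gbp4. The PBS difference between stages ran from -1.54 to 0.044 for Gbp3, -0.038 to 3.12 for Gbp4 and -2.34 to 1.55 for Gbp9. With pairs left out it was 0.043 for Gbp3 (embryonic 2), -0.054 for Gbp4 (embryonic 3), and 1.53 (adult 2), 0.43 (embryonic 1) and 0.30 (embryonic 2) for Gbp9. The LPS difference of Gbp6 was -0.79 without embryonic LPS replicate 3 (highest value 1.42) and -0.79 without that pair. A block within stages cannot be fitted to the differences between stages, so those were not run. With 3 counts at 0.0896 to 0.144 CPM, depth limits Gbp8, and Gbp4, Gbp5 and Gbp6 with PBS.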
